A study of Sus scrofa with 12 samples.

Results

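The genes described here are the potassium channel genes of the pig, taken as all genes whose name in the authors' deposited comparison table starts with KCN. The rule gave 87 of the 25880 genes in the count table, in 20 name groups, and 67 of the 87 had enough counts to be among the 14004 genes tested. Of the 87, 83 are named as channel subunits or their accessory proteins, and 4 are annotated fragments of KCNQ1OT1, a non-coding RNA of the imprinted KCNQ1 locus. Another 8 genes that a reference table names as KCN genes carry no such name in the authors' table and are not members, among them KCNA3, KCNJ3 and KCNH1.

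The libraries came from tissue labelled striatum of 12 newborn piglets, of which 6 were sham animals and 6 underwent deep hypothermic circulatory arrest (DHCA), the cooling and stopping of the circulation used in heart surgery on infants. All 12 animals had anaesthesia with 4% isoflurane, and the sham piglets had that alone, with no recovery time recorded. The DHCA piglets were placed on cardiopulmonary bypass through the opened sternum, cooled to 18 °C, held for 30 min without circulation, brought back to 37 °C while on bypass and then given 6 h of recovery. Surgery, bypass, cooling, arrest, rewarming and recovery therefore cannot be told apart, and strain, sex and age in days are not given in the sources used here.

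Potassium channels let potassium leave the cell and so set the resting potential, repolarize the action potential and limit firing. Voltage-gated (Kv) channels are made of pore subunits of the KCNA to KCND, KCNH and KCNQ groups, joined by silent partners (KCNF, KCNG, KCNS, KCNV) and accessory subunits (KCNAB, KCNE, KCNIP). Inward rectifiers (KCNJ), leak channels with a doubled pore domain (KCNK) and calcium-activated channels (KCNM, KCNN) complete the family, and the projection neurons of the striatum, the spiny neurons, are known for strong inward rectification and A-type Kv current. When blood flow stops, the sodium pump fails and potassium builds up outside cells, where glial channels take part in its clearance.

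Library totals ranged from 1377809 counts (Sham 5) to 12933536 (Sham 6), and the members took between 0.225% and 0.427% of them. The label striatum was checked against 15 spiny neuron markers that were in the table, whose summed level was 3749 to 7611 CPM (counts scaled to a common library size) in 5 sham libraries and 2993 to 6102 CPM in the DHCA libraries. In the library labelled Sham 4 it was 311 CPM, with DRD2 at 0.284 CPM and SIX3 at 0.142 CPM, while the 8 markers of glutamatergic cortical neurons summed to 1173 CPM, where the other sham libraries had 8.66 to 28.6 CPM. Counts over the family are therefore given with and without Sham 4, as are the fold changes of the genes the results turn on. The library DHCA 3 stood apart in oligodendrocyte markers, at 64778 summed CPM against 4502 to 33176 CPM elsewhere. Sham 1, with 2515816 counts, and Sham 5 were the shallowest libraries. In Sham 1, 58.4% of all genes tested lay outside the range of the other 11 libraries, the highest share of any library. That share was 21.5% in Sham 4 and 16.3% in Sham 5. At an unadjusted p under 0.05, 4 of 7 endothelial, 3 of 5 fibroblast and both of the tested red blood cell markers were lower in DHCA and 1 endothelial marker was higher. At the same p, 3 of 4 tested glutamatergic cortical, 2 of 6 microglia and 1 of 3 subcortical markers were lower. So were 1 of 8 interneuron and 1 of 5 oligodendrocyte precursor markers, and none in these lists was higher. Over all genes 4.47% were lower and 3.43% higher at that p. These marker counts include Sham 4 and were not made without it. The cortical markers summed to 5.99 to 24.7 CPM in DHCA, overlapping the 8.66 to 28.6 CPM of the sham libraries other than Sham 4. The part of these cell types in the values below was not tested. In bulk tissue, fewer cells of a type and less RNA per cell cannot be told apart.

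Which potassium channels newborn striatum carried is a question of levels, given here as CPM per kilobase of annotated length (RPKM) so that genes can be compared. Among the genes reported here by name, the highest median levels over the 6 sham libraries belonged to KCNIP2 at 63.4 RPKM, an accessory subunit of A-type channels, and to KCND2 at 56.8 RPKM, the main A-type pore subunit. KCNF1, a silent Kv subunit, had a median of 53.2 RPKM, and KCNJ4, a strong inward rectifier, had 47.1 RPKM. KCNA1, an axonal Kv subunit, followed at 44.5 RPKM, KCNQ3, a subunit of the M-current, at 41.0 RPKM, KCNA6 at 38.3 RPKM and KCNJ10, the main inward rectifier of glia, at 35.5 RPKM. The sham ranges overlapped in all 66 neighbouring pairs of this order over the 67 tested members, so no neighbours stood apart beyond their spread. Without Sham 4 the genes named here kept their order, with KCNIP2 at 64.1 RPKM and KCND2 at 59.0 RPKM. The median of the tested members was 5.00 RPKM against 6.52 RPKM over all genes tested, and 28 of the 67 lay above the latter value.

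**Figure D1:**
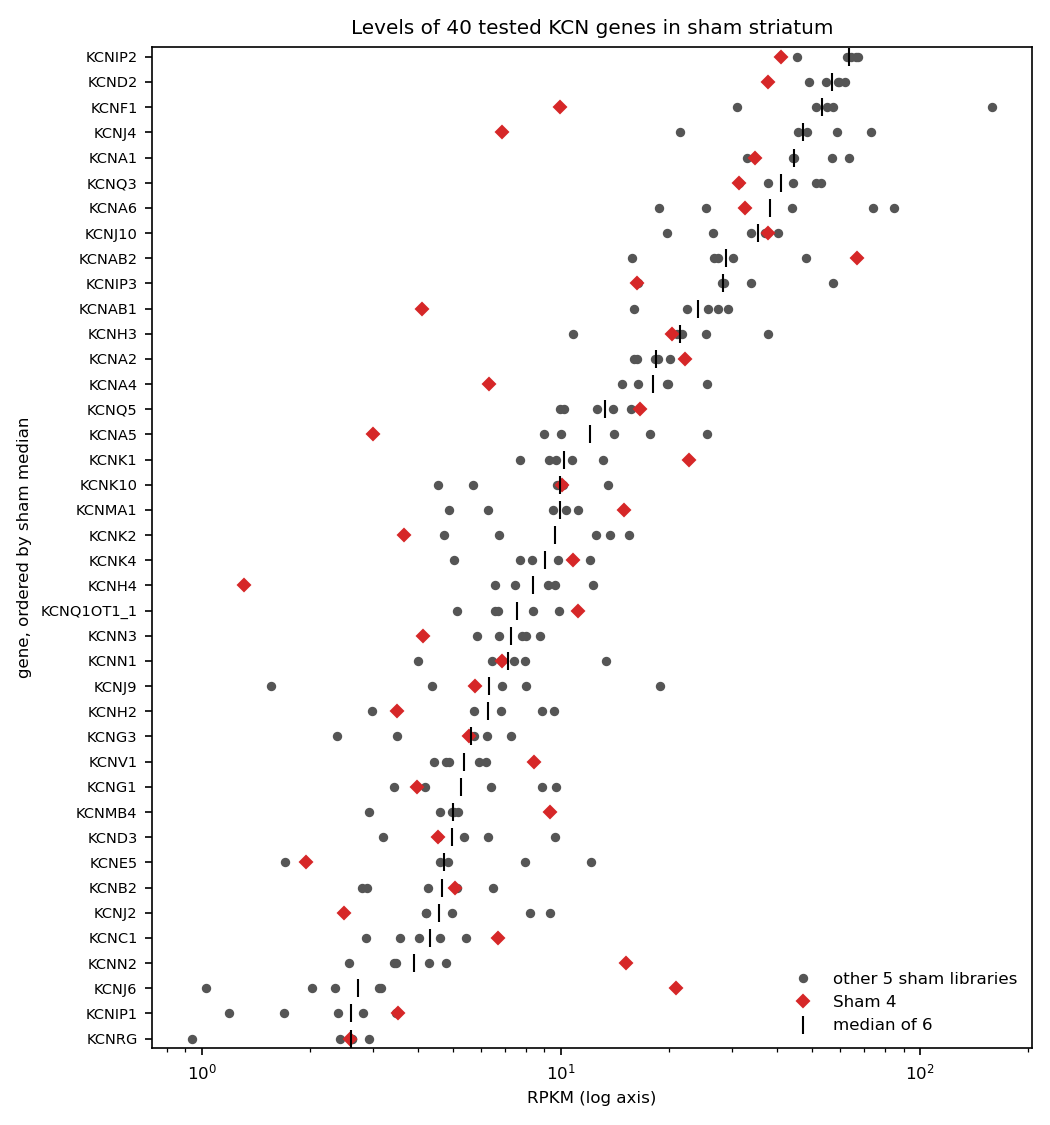
Level of the 40 tested KCN genes with the highest sham medians among those reported by name, in RPKM on a log axis, with 1 point per sham library, Sham 4 as a red diamond and the median of 6 as a bar. KCNIP2 and KCND2 lead at 63.4 and 56.8 RPKM, and Sham 4 lies far to the left for KCNF1, KCNJ4, KCNAB1 and KCNH4 and far to the right for KCNJ6 and KCNN2.

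Whether DHCA altered these genes was asked in a fit over all genes with the edgeR quasi-likelihood test and Benjamini-Hochberg adjustment. A fold change is DHCA minus sham on the log2 scale. At an adjusted p under 0.05 no KCN gene was called, against 0.186% of all genes tested (26 of 14004), and the smallest adjusted p of a member was 0.235. At an unadjusted p under 0.05, 2 members were higher in DHCA, KCNK13 and KCNN3, where the share over all genes was 3.43%. At the same p, 4 were lower, KCNS3, KCNQ1OT1_1, KCNJ16 and KCNJ6, where the share over all genes was 4.47%. Both counts are near those shares and are no result about the family. No member had all DHCA libraries above all sham libraries (0.678% of all genes) or all below (0.314% of all genes). A change of at least 1 on the log2 scale in size was seen for 3 members, KCNJ16, KCNJ6 and KCNS3, against 2.58% of all genes.

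The direction of the fold changes was uneven. Of the 67 tested members 47 had a negative fold change (50.5% of all genes) and 20 a positive one (49.5% of all genes), with a median of -0.17 against -0.0030 over all genes tested. Without Sham 4 the split was 41 negative (50.2% of all genes) to 26 positive (49.8%), with a median of -0.10, and 14 members changed sign. Without Sham 1, Sham 4 and Sham 5 it was 29 negative (48.5% of all genes) to 39 positive (51.5%) among 68 tested members, with a median of 0.018. The lean to negative values thus was not kept across these choices of sham libraries. Without Sham 4 no member was called (0.0708% of all genes), 2 were higher at an unadjusted p under 0.05 (2.83% of all genes), KCNC4 and KCNMB4, and 5 were lower (4.29% of all genes), KCNS3, KCNQ1OT1_1, KCNH4, KCNAB3 and KCNJ16. Of the 6 members under that p with all libraries and the 7 without Sham 4, 3 were the same genes. Without Sham 4 no member had all DHCA libraries above the sham libraries (0.828% of all genes) or all below (0.41%), and none had a change of at least 1 in size (2.25%). Without Sham 1, Sham 4 and Sham 5 no member was called (0.00696% of all genes), KCNA5 was higher at an unadjusted p under 0.05 (3.14% of all genes were), and KCNH5 and KCNS3 were lower (2.54%).

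**Figure D2:**
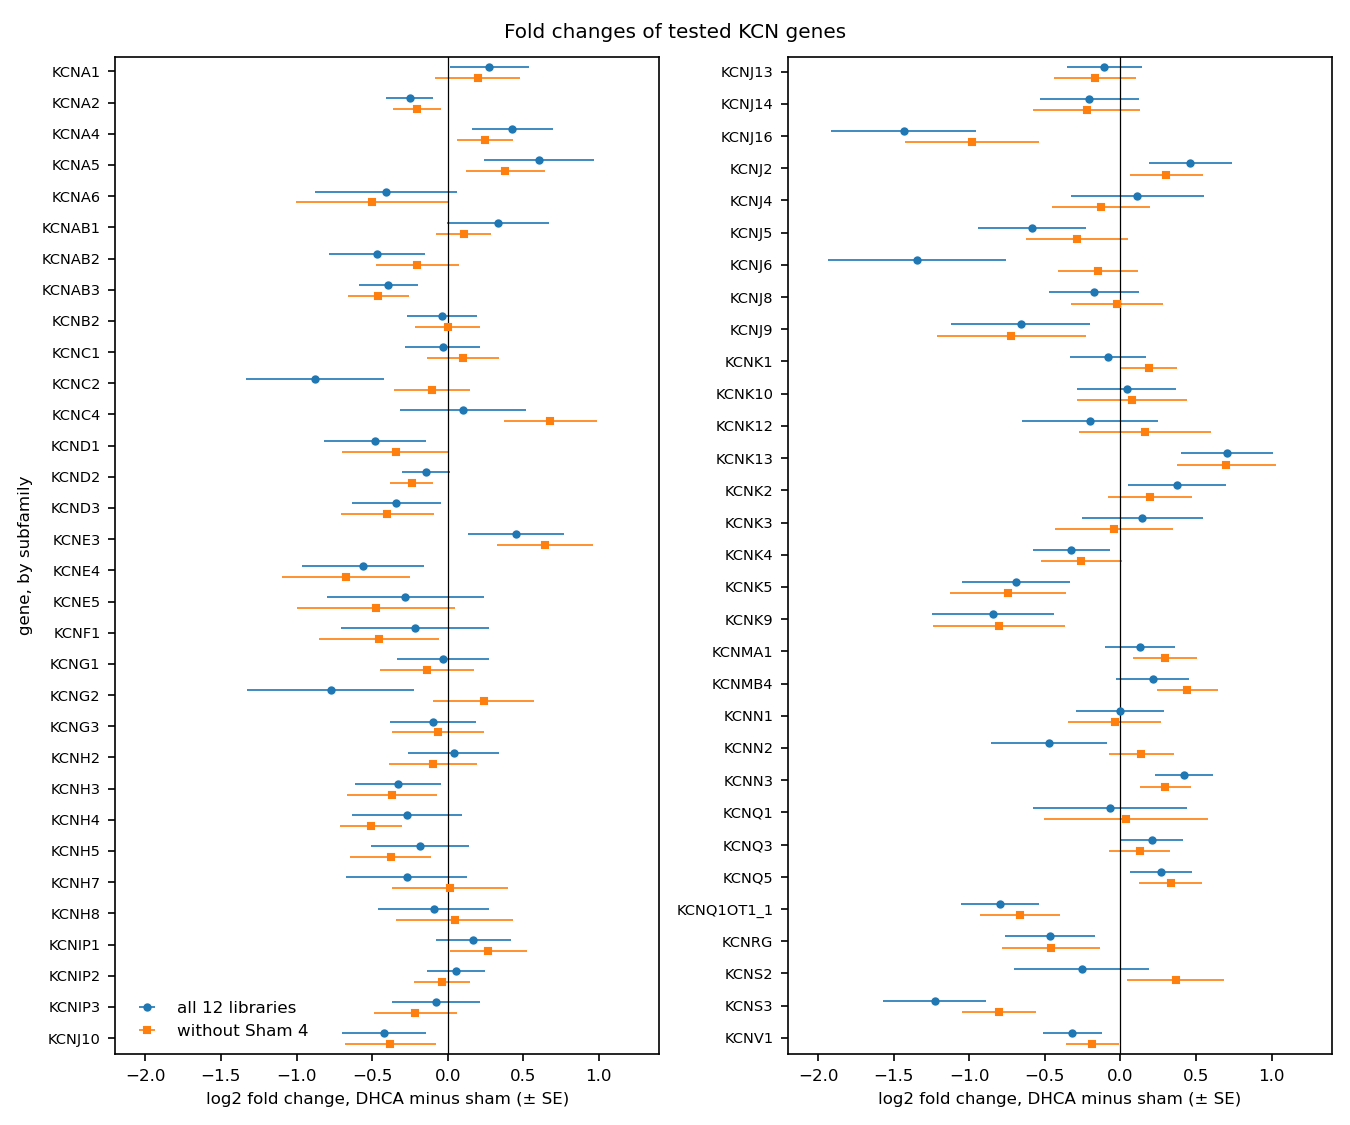
Log2 fold change (DHCA minus sham, ± SE from edgeR) of 63 tested KCN genes by subfamily, with all 12 libraries (blue circles) and without Sham 4 (orange squares). KCNJ6, KCNC2 and KCNG2 move from -1.34, -0.88 and -0.77 to -0.15, -0.10 and 0.24 without that library, while KCNS3 goes from -1.23 to -0.80.

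The smallest edgeR p of the tested members belonged to KCNS3, a silent subunit that forms channels only together with KCNB subunits. The gene (ENSSSCG00000031905) lies on chromosome 3, 119951097 to 119989366, minus strand, in Sscrofa11.1, the build of all coordinates here. Its level was 3.66 CPM in the lowest sham library, 5.83 CPM at the median and 16.1 CPM in the highest, Sham 4, and 2.30, 3.14 and 3.90 CPM in DHCA; levels of other genes are given in the same order, from the lowest over the median to the highest library. The groups overlapped only through Sham 2, the lowest sham library, which lay below the highest DHCA library. Its fold change was -1.23 (SE 0.34; edgeR adjusted p = 0.235). Without Sham 4 it was -0.80 (SE 0.24; adjusted p = 0.391), and the unadjusted p was under 0.05 in both fits. The other tested silent subunits had fold changes of smaller size. KCNS2 stood at -0.26 (SE 0.45) and 0.37 without Sham 4, KCNV1 at -0.32 (SE 0.19) and -0.19, KCNF1 at -0.22 (SE 0.49) and -0.45, and KCNG1 and KCNG3 at -0.03 and -0.10. KCNG2 went from -0.77 (SE 0.55) to 0.24 (SE 0.34) without Sham 4, where it stood at 13.6 CPM against 1.08 to 3.40 CPM in the other 11 libraries. KCNB2, a pore subunit that silent subunits join, had a fold change of -0.04 (SE 0.23). Of the sum of KCNS2 and KCNS3 per length, KCNS3 made up 35.6% at the DHCA median and 51.5% at the median of the sham libraries other than Sham 4. In the other sham libraries this share ran from 36.0% to 79.9% and in DHCA from 26.3% to 38.6%, so the ranges overlapped.

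Among the Kv1 genes, KCNA1, KCNA2, KCNA4, KCNA5 and KCNA6 were tested and none was called. KCNA5, a Kv1 pore subunit also known from microglia and vessels (chromosome 5, 65440133 to 65441935, minus strand), ran from 5.40 CPM in Sham 4 over a median of 21.7 to 46.1 CPM in Sham 1, and in DHCA from 27.4 over 35.8 to 44.6 CPM. All DHCA libraries lay within the sham range, toward its upper end. KCNA5 had a fold change of 0.61 (SE 0.36; edgeR adjusted p = 0.761), 0.38 (SE 0.26) without Sham 4 and 0.69 (adjusted p = 0.642) without Sham 1, Sham 4 and Sham 5. Its neighbours on the same strand of chromosome 5 differed in sign, KCNA1 at 0.28 (SE 0.26) and KCNA6 at -0.41 (SE 0.47). KCNA6 varied widely within both groups, from 96.3 to 435 CPM in sham and from 63.6 to 436 CPM in DHCA. KCNA4, an A-type Kv1 subunit, stood at 0.43 (SE 0.27) with all libraries. It was at 30.3 CPM in Sham 4 against 71.2 to 136 CPM in the other 11 libraries. KCNA2, a juxtaparanodal subunit of myelinated axons, stood at -0.25 (SE 0.16), with 57.1 CPM in Sham 4 against 29.5 to 51.9 CPM elsewhere.

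Of the cytosolic Kv1 beta subunits, KCNAB1 and KCNAB2 stood apart in Sham 4. KCNAB1 had a fold change of 0.33 (SE 0.34), with 22.9 CPM in Sham 4 against 88.8 to 165 CPM elsewhere, and 0.11 (SE 0.18) without that library. KCNAB2 had -0.47 (SE 0.32), with 392 CPM in Sham 4 against 92.5 to 282 CPM elsewhere, and -0.20 (SE 0.27) without it. KCNAB3 ran from 9.32 over 13.5 to 19.4 CPM in sham and from 8.14 over 10.6 to 11.6 CPM in DHCA, with overlapping groups. Its fold change was -0.39 (SE 0.19; edgeR adjusted p = 0.678) and -0.46 (SE 0.20; adjusted p = 0.679) without Sham 4. The exons of KCNAB1 overlap those of SSR3 over 47.4% of the KCNAB1 length, those of KCNAB2 overlap CHD5 over 20.4% and those of KCNAB3 overlap TRAPPC1 over 13.6%, so reads there may be shared with or lost to the other gene.

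None of the tested fast-spiking (Kv3) and A-type (Kv4) channel genes was called. KCNC1, a Kv3 pore subunit, had a fold change of -0.03 (SE 0.25). KCNC2, known from fast-spiking interneurons and cortex, had -0.88 (SE 0.46; adjusted p = 0.703). This value rested on Sham 4, where it stood at 80.6 CPM against 8.53 to 21.4 CPM in the other 11 libraries, and was -0.10 (SE 0.25) without it. KCNC4 moved the other way. It stood at 19.8 CPM in Sham 4, from 3.33 over 5.34 to 6.98 CPM among the other sham libraries and from 4.12 over 8.34 to 11.7 CPM in DHCA. Its fold change was 0.10 (SE 0.42) with all libraries and 0.68 (SE 0.31; adjusted p = 0.687) without Sham 4. The A-type pore gene KCND2 held between 87.1% and 91.1% of the Kv4 sum per length in Sham 4, at the median of the other sham libraries and at the DHCA median, and its fold change was -0.14 (SE 0.16). KCND1 and KCND3 had -0.48 (SE 0.34) and -0.34 (SE 0.29). The Kv4 accessory genes KCNIP1, KCNIP2 and KCNIP3 had 0.17 (SE 0.25), 0.06 (SE 0.19) and -0.08 (SE 0.29). KCNIP4 did not pass the filter and overlaps PACRGL over 79.7% of its length.

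The KCNH genes, which include the ERG and ELK channels, had 6 tested members with fold changes from -0.33 (KCNH3) to 0.04 (KCNH2). KCNH4, an ELK channel, stood at 7.96 CPM in Sham 4, ran from 39.7 over 56.1 to 74.6 CPM among the other sham libraries and from 26.9 over 38.9 to 50.5 CPM in DHCA. Its fold change was -0.27 (SE 0.37) with all libraries and -0.51 (SE 0.21; edgeR adjusted p = 0.627) without Sham 4, with the groups overlapping. KCNH6, an ERG channel, did not pass the filter. It had 0 to 7 counts per sham library and 3 to 29 per DHCA library, or 0 over 0.113 to 0.809 CPM against 0.615 over 1.11 to 2.84 CPM. Only Sham 3 lay above the lowest DHCA library. In the authors' deposited table its log2 fold change was 2.22 with p = 0.00223 and an adjusted p of 0.115, the smallest adjusted p of a member there. That table also lists 86 genes for which the 12 libraries used here hold 0 counts, so its values may rest on other libraries too. The DESeq2 test on the counts gave 2.20 with an adjusted p of 0.148, where 1.1% of all genes were called.

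The genes of the M-current, a slow Kv current that limits repetitive firing, overlapped between the groups, and none was called. KCNQ3 ran from 71.9 over 94.2 to 121 CPM in sham and from 65.6 over 115 to 134 CPM in DHCA, with a fold change of 0.21 (SE 0.21). KCNQ5 ran from 62.4 over 83.3 to 104 CPM in sham and from 61.6 over 98.3 to 136 CPM in DHCA, with a fold change of 0.27 (SE 0.20). For both genes the DHCA range covered the whole sham range. KCNQ1, known from epithelia and heart, was low, with a fold change of -0.07 (SE 0.51). KCNE3, KCNE4 and KCNE5, accessory subunits with a broad choice of partners, had 0.46 (SE 0.32), -0.56 (SE 0.40) and -0.28 (SE 0.52).

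KCNQ1OT1 is transcribed within KCNQ1 and is known for silencing neighbouring genes on the paternal allele. The fragment KCNQ1OT1_1 (ENSSSCG00000040030, chromosome 2, 1814899 to 1815370, 472 bases) ran from 2.43 over 3.56 to 5.26 CPM in sham and from 1.57 over 2.04 to 2.92 CPM in DHCA, with only the lowest sham library, Sham 3, inside the DHCA range. The fold change was -0.80 (SE 0.26; edgeR adjusted p = 0.369) and -0.66 (SE 0.26; adjusted p = 0.604) without Sham 4. The annotation places the fragment on the plus strand, as it does KCNQ1, inside the span of that gene and outside its exons, and the counting set no strand option, so transcripts of either strand across this interval cannot be told apart. The other 3 fragments did not pass the filter. Their DHCA medians were 0.578 CPM for KCNQ1OT1_2, 0.332 CPM for KCNQ1OT1_3 and 0.355 CPM for KCNQ1OT1_5, beside sham medians of 0.391, 0.526 and 0.670 CPM, with overlapping ranges.

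Inward rectifiers were the largest group after the leak channels, with 10 of 12 genes tested. Of these, 8 had a negative fold change (50.5% of all genes) and 2 a positive one (49.5%). Without Sham 4 the split was 9 negative (50.2% of all genes) to 1 positive (49.8%). KCNJ16 (ENSSSCG00000034358, chromosome 12, 10393179 to 10448536, minus strand) forms glial and epithelial channels with KCNJ10. It had the largest fold change in size of the tested members. It ran from 1.76 over 3.80 to 10.4 CPM in sham, with Sham 4 the highest, and from 0.588 over 1.77 to 3.40 CPM in DHCA. The groups overlapped, with 3 sham libraries below the highest DHCA library. The fold change was -1.43 (SE 0.48; edgeR adjusted p = 0.397) and -0.98 (SE 0.44; adjusted p = 0.690) without Sham 4. Its counts were low, 6 to 73 per library. KCNJ2, a strong inward rectifier of spiny neurons that lies 30934 bases away on the same strand, pointed the other way. It ran from 13.9 CPM in Sham 4 over 25.7 to 52.3 CPM in sham and from 34.2 over 42.1 to 56.8 CPM in DHCA, with a fold change of 0.46 (SE 0.28; adjusted p = 0.761) and 0.30 (SE 0.24) without Sham 4. KCNJ4, the more abundant strong rectifier, had 0.11 (SE 0.44) and -0.13 (SE 0.32).

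KCNJ10 ran from 104 over 187 to 212 CPM in sham and from 80.6 over 106 to 259 CPM in DHCA. In DHCA 3 it was the highest of all 12 libraries, and the other 5 DHCA libraries lay between 80.6 and 117 CPM, below all sham libraries but Sham 1 at 104 CPM. KCNJ10 had a fold change of -0.42 (SE 0.28; edgeR adjusted p = 0.776), -0.38 (SE 0.30) without Sham 4 and -0.77 (adjusted p = 0.258) without DHCA 3. DHCA 3 was also the library with the highest oligodendrocyte markers, and KCNA1, KCNA6 and KCNK10 were at their highest there, at 152, 436 and 70.1 CPM. KCNA6 was hardly above the highest sham library. In DHCA 3, 4 tested members lay above and 14 below all other libraries, or 26.9% against 28.5% of all genes tested. The part of oligodendrocyte content in these values was not tested. The 8 astrocyte markers summed to 5375 to 6236 CPM in sham and 4941 to 7168 CPM in DHCA, with overlapping groups. KCNJ9, which lies 11925 bases from KCNJ10 on the other strand and forms G protein-gated channels, had a fold change of -0.66 (SE 0.46) and -0.72 (SE 0.49) without Sham 4.

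**Figure D3:**
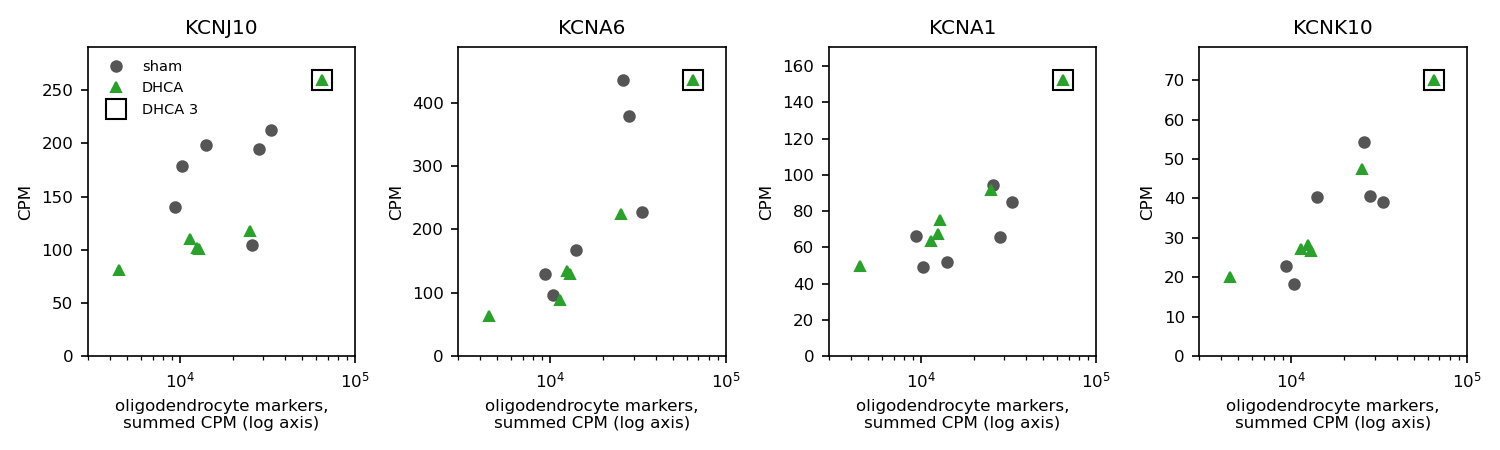
CPM of KCNJ10, KCNA6, KCNA1 and KCNK10 in each library against the summed CPM of 6 oligodendrocyte markers (log axis), with sham as grey circles, DHCA as green triangles and DHCA 3 boxed. DHCA 3 has the highest marker sum, 64778 CPM, and 5 DHCA libraries lie between 80.6 and 117 CPM for KCNJ10. These 4 genes are the tested members above all other libraries in DHCA 3, so their top values there follow from the choice.

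Of the G protein-gated rectifiers, through which dopamine, acetylcholine and other transmitters slow firing, KCNJ6 and KCNJ5 moved with Sham 4. KCNJ6, the principal neuronal subunit, stood at 110 CPM in that library, from 5.43 over 12.4 to 16.6 CPM among the other sham libraries and from 7.22 over 12.4 to 13.8 CPM in DHCA. The DHCA range lay inside that of the other sham libraries. The fold change of -1.34 (SE 0.59; edgeR adjusted p = 0.590) became -0.15 (SE 0.27) without Sham 4. KCNJ5 had -0.59 (SE 0.36) and -0.29 (SE 0.34). KCNJ8, the pore of the ATP-sensitive channel of pericytes, had -0.17 (SE 0.30), and its partner, the sulphonylurea receptor gene ABCC9, had 0.17 (SE 0.26). The markers of pericytes and smooth muscle summed to 252 to 423 CPM in sham and 310 to 386 CPM in DHCA.

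Of the 13 leak channel genes 9 were tested. With all libraries 4 fold changes were above 0 (49.5% of all genes) and 5 below (50.5%). Without Sham 4, 5 were above 0 (49.8% of all genes) and 4 below (50.2%). KCNK13, a channel known from microglia (ENSSSCG00000002432, chromosome 7, 111866983 to 111980485, plus strand), ran from 0.666 over 1.37 to 2.02 CPM in sham and from 1.44 over 2.10 to 3.58 CPM in DHCA. The groups overlapped, and its counts were low, 1 to 32 per library. The fold change was 0.71 (SE 0.30; edgeR adjusted p = 0.579) and 0.70 (SE 0.33) without Sham 4. The 6 microglia markers summed to 146 to 311 CPM in sham and 140 to 242 CPM in DHCA, with overlapping groups. At an unadjusted p under 0.05, 2 of them were lower, where the share over all genes was 4.47%. The part of microglia in the KCNK13 values was not tested. KCNK9, an acid-sensitive leak channel of neurons, pointed down, from 1.25 over 3.47 to 5.99 CPM in sham to 0.824 over 1.60 to 3.49 CPM in DHCA, with a fold change of -0.84 (SE 0.41; adjusted p = 0.661) and -0.80 (SE 0.44) without Sham 4. KCNK5, its alkali-sensitive relative, had -0.69 (SE 0.36; adjusted p = 0.701), and KCNK3, another acid-sensitive channel, had 0.15 (SE 0.40). The mechanosensitive channels KCNK2, KCNK4 and KCNK10 had 0.37 (SE 0.32), -0.33 (SE 0.25) and 0.04 (SE 0.33) with all libraries. KCNK2 was at 21.3 CPM in Sham 4 against 27.5 to 90.9 CPM elsewhere. KCNK1 had -0.08 (SE 0.25), and 0.19 (SE 0.19) without Sham 4, where it stood at 67.7 CPM against 22.9 to 47.9 CPM elsewhere.

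Calcium-activated channels end bursts and shape the afterhyperpolarization. KCNN3, a small-conductance (SK) channel of the striatum and of dopamine neurons (ENSSSCG00000006542, chromosome 4, 94929776 to 95108365, plus strand), ran from 11.7 CPM in Sham 4 over 20.6 to 24.7 CPM in sham and from 19.5 over 27.9 to 29.3 CPM in DHCA. The DHCA libraries other than DHCA 2 and DHCA 3 lay above every sham library. KCNN3 had a fold change of 0.42 (SE 0.19; edgeR adjusted p = 0.622) and 0.30 (SE 0.17) without Sham 4. KCNN2 had -0.47 (SE 0.38), and 0.14 (SE 0.22) without Sham 4, where it stood at 44.6 CPM against 7.55 to 15.6 CPM elsewhere. KCNN1 had -0.0032 (SE 0.29). KCNMA1, the pore of the large-conductance (BK) channel, had 0.13 (SE 0.23) and 0.30 (SE 0.21) without Sham 4. KCNMB4, its neuronal beta subunit, ran from 6.20 over 10.6 to 19.8 CPM in sham, with Sham 4 the highest, and from 8.76 over 14.2 to 15.3 CPM in DHCA. Its fold change was 0.21 (SE 0.24) and, without Sham 4, 0.44 (SE 0.20; adjusted p = 0.691). KCNMB1, the beta subunit of smooth muscle, did not pass the filter, at 0.659 over 1.41 to 3.64 CPM in sham and 0.307 over 0.652 to 0.951 CPM in DHCA.

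**Figure D4:**
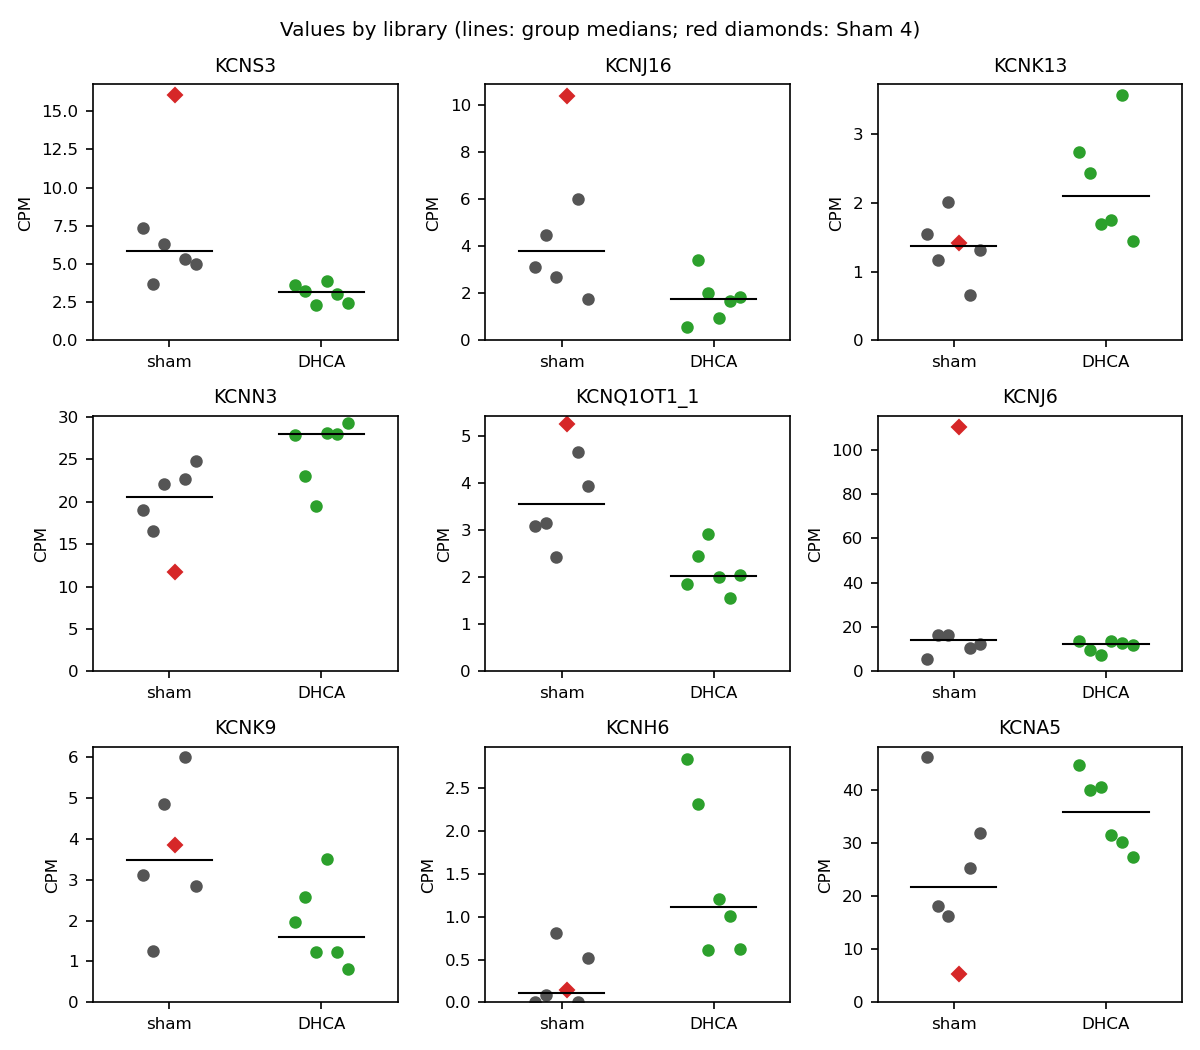
CPM by library for 9 KCN genes in 6 sham (grey; Sham 4 as a red diamond) and 6 DHCA (green) libraries, with group medians as lines. Sham 4 is the highest sham library for KCNS3, KCNJ16, KCNQ1OT1_1 and KCNJ6 (110 CPM) and the lowest for KCNN3 (11.7 CPM) and KCNA5 (5.40 CPM), and the groups overlap in every panel.

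Sham 4 itself shows how the potassium channel set of a library with 311 CPM of spiny neuron markers differed from the rest. Of the 67 tested members 32 lay outside the range of the other 11 libraries, 20 above and 12 below, or 47.8% against 21.5% of all genes tested. For comparison, the shares were 41.8% of members against 58.4% of all genes in Sham 1 and 26.9% against 28.5% in DHCA 3. With 1 library there is no test. The genes lowest in Sham 4 against the median of the other sham libraries were KCNJ4 and KCNH4 (both -2.78 on the log2 scale), KCNAB1 (-2.63), KCNF1 (-2.45), KCNA5 (-2.17) and KCNK2 (-1.76). KCNJ4, for example, was at 9.24 CPM there and at 28.0 to 98.1 CPM elsewhere. The highest were KCNJ6 (3.13), KCNG2 (2.42), KCNC2 (2.38), KCNN2 (2.10), KCNC4 (1.84) and KCNS2 (1.77). Within subfamilies the balance was therefore another one. KCNN2 made up 58.0% of the SK sum per length in Sham 4 and 21.2% at the median of the other sham libraries, KCNJ6 25.0% against 2.63% of the tested inward rectifiers, and KCNJ4 8.21% against 50.1%. KCND2, with 87.1% against 91.1% of the Kv4 sum, kept its lead. The median biological coefficient of variation of the members was 36.0% against 29.8% over all genes, and 30.9% against 28.7% without Sham 4.

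**Figure D5:**
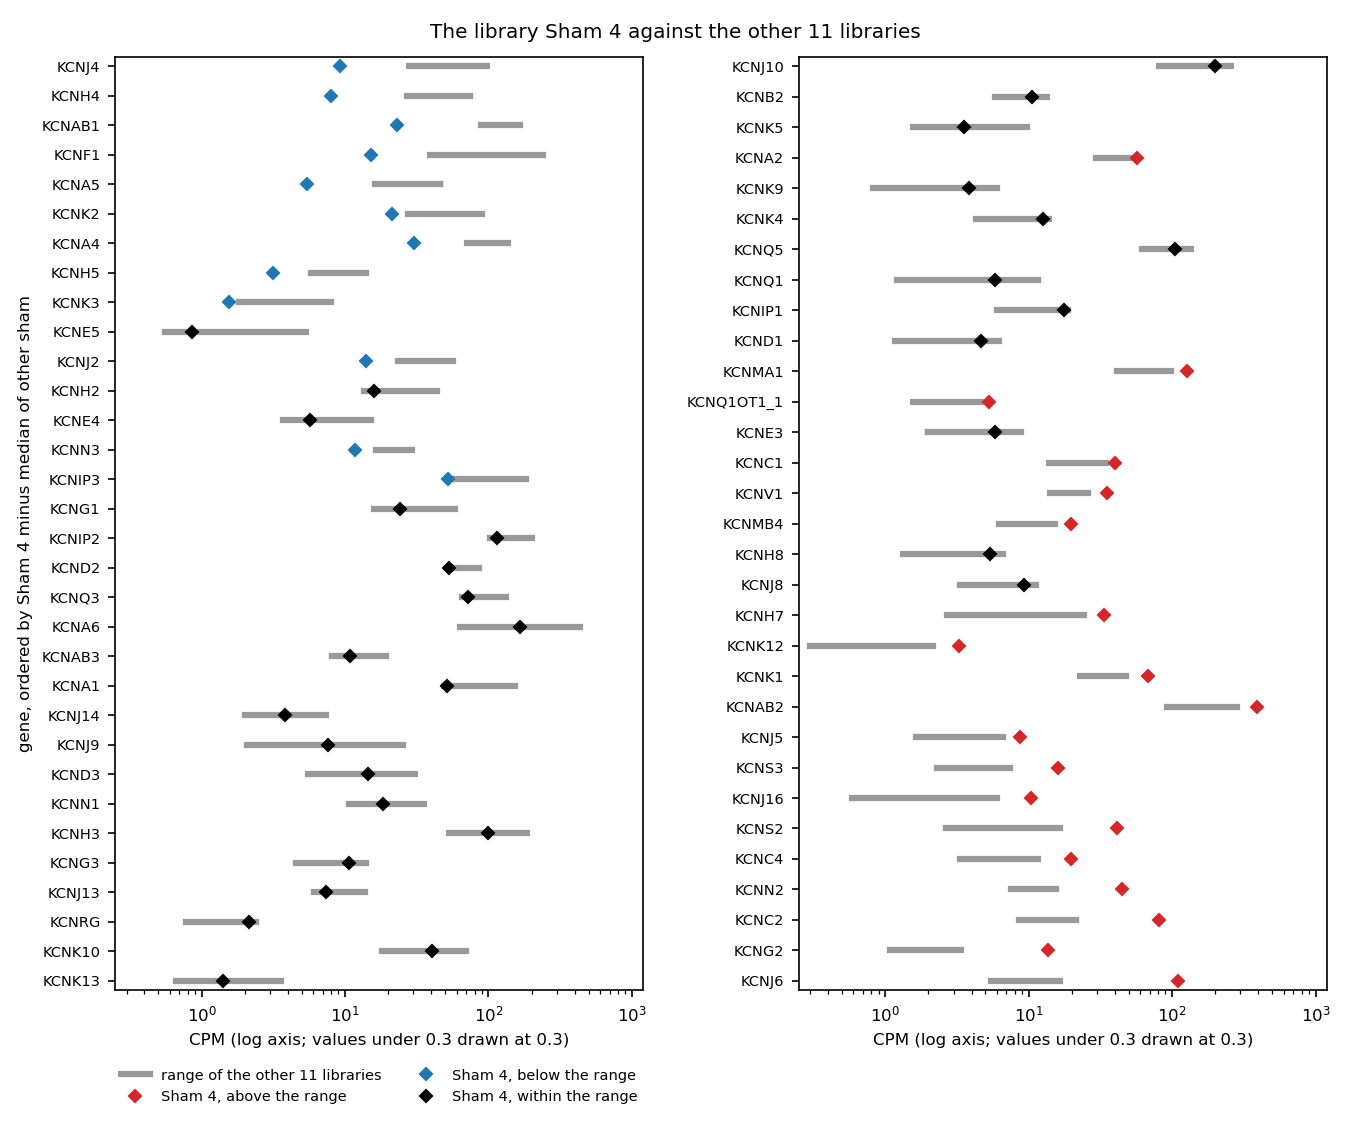
CPM (log axis) of 63 tested KCN genes in Sham 4 (diamonds) and the range of the other 11 libraries (grey bars), ordered by the difference of Sham 4 from the median of the other sham libraries. Red diamonds mark genes above that range, led by KCNJ6 at 110 CPM, and blue ones the 12 below it, led by KCNJ4 at 9.24 CPM.

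No member had an adjusted p under 0.05 in the authors' deposited table (1.29% of the 17108 genes with such a value), and 8 had an unadjusted p under 0.05 (8.26% of 21223 genes). Of these, 3 were higher in DHCA, KCNH6, KCNJ2 (0.55) and KCNA5 (0.74), and 5 were lower, KCNS3 (-1.12), KCNMB1 (-1.36), KCNJ16 (-1.36), KCNQ1OT1_1 (-0.72) and KCNK9 (-0.91). Of the 67 tested members 63 had the same sign in the authors' deposited table and in the fit described here.

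The 20 members that were not tested did not pass the filter on counts, with sham medians between 0 and 1.41 CPM. Single libraries reached 29 counts for KCNH6 (DHCA 1) and 27 for KCNMB1 (Sham 3). Besides those named above they were KCNA7, KCNA10, KCNG4, KCNJ1, KCNJ15, KCNK6, KCNK7, KCNK15, KCNK16, KCNMB3, KCNN4, KCNS1, KCNU1 and KCNV2. Each had at least 1 count in the 12 libraries, and they entered no edgeR test at this depth, where 3 counts stand for 0.220 CPM in Sham 6 and 2.00 CPM in Sham 5.

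Other genes of ion handling were read from lists of channel partners, pumps and other channels. Of 84 listed genes 81 were in the table and 66 were tested, none was called, and 34 had a positive and 32 a negative fold change, with a median of 0.025. CACNA1I, a T-type calcium channel, was lower at an unadjusted p under 0.05 (-0.57, SE 0.26; edgeR adjusted p = 0.605). The A-type partner DPP10 had 0.69 (SE 0.32) and DPP6 had 0.03 (SE 0.18). CNTNAP2, which clusters Kv1 channels along axons, had 0.49 (SE 0.23). Of 12 tested pump and cotransporter genes 9 had a negative fold change (50.5% of all genes), and of 12 genes that cluster Kv1 and Kv7 channels on axons 10 had a positive one (49.5% of all genes). LRRC8A, a pore subunit of the volume-regulated anion channel, had 0.38 (SE 0.18; adjusted p = 0.662).

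Genes outside the family with the most similar values over the 12 libraries, by Pearson correlation of log2 CPM, were BCL9 (0.955), LRRK1 (0.940) and SNCB (0.934) for KCNS3. For KCNQ1OT1_1 they were NID2 (0.889), CCNJL (0.884) and COLEC10 (0.879), and for KCNJ16 they were FZD10 (0.879), ADAMTS19 (0.855) and CTTNBP2 (0.849). These are descriptions over libraries that include Sham 4, which was the highest library for all 3 members.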

How the data were processed

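RNA was isolated with RNeasy columns, made into libraries with an Illumina TruSeq kit and sequenced on a HiSeq instrument, per the labels' protocols. The authors counted reads per gene with featureCounts 1.5.1 on Sscrofa11.1 exons, with no strand option, per the file headers. An aligner was not given in the sources used here, and featureCounts, DESeq2 and Sscrofa11.1 are named by the submitters' processing notes. Of the 18 libraries in the count table, 12 have headers that carry a sample's letter and number, and the other 6 columns were not used. The authors' deposited comparison table holds, per the file headers, each gene's log2 fold change and standard error, its p-value with the adjusted value, a test score and a normalized mean signal. The sign there was taken to be DHCA minus sham, because it correlated at 0.967 with the fold changes computed here across 14004 genes, which fixes only the sign. In all 21223 rows its test statistic has the sign opposite to its fold change. It also has rows for 86 genes with 0 counts in the 12 libraries, and which libraries entered it was not given in the sources used here.

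Members were matched to counts by Ensembl ID. In R 4.3.3 with edgeR 4.0.16, genes passing filterByExpr (by group) were scaled by TMM, and the test was glmQLFTest after a robust glmQLFit, with group as the only term and a threshold of 0.05 on the Benjamini-Hochberg adjusted p. SE values were taken from the F statistic. CPM is the count scaled by library size and TMM factor, and RPKM is CPM per kilobase of the deposited gene length. Log2 CPM used a prior count of 2. The depth limits precision by counting error alone, and 1 CPM stands for 1.50 counts in Sham 5 and 13.7 in Sham 6. Within a group, pairs of libraries gave a chi-square of 8.50 to 125.8 per degree of freedom, so none was counted as a repeat. The design text gives separate piglets, so p-values measure the spread between libraries of separate animals. As no animal has a repeat library, differences between animals cannot be told apart from those between tissue samples or library preparations.

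Alternatives were other scaling factors, the DESeq2 1.42.0 Wald test, limma 3.58.1 voom with and without sample weights, other filters, the title number as a block, fits without single libraries and a threshold of 0.01. The steps were tested on simulated data.

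The members, gene lists and tests were chosen with earlier results of these data known. Genes named by rule were the 15 members with the smallest p, the highest member per subfamily by sham RPKM, 37 members out of 42 genes fixed by name, the 6 members farthest from the other sham libraries in Sham 4 in each direction, the 3 smallest p of each pathway list with at least 3 tested, and the 3 genes most correlated with each of the 3 top members. This gave 56 members, of which 53 were tested, and some genes under the rule are counted in the fits but not reported here by name. KCNH6, KCNMB1, KCNG1, KCND1 and the other members named beyond the rule complete a subfamily or a count and were chosen after their values were seen.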

Additional observations from a re-analysis of the deposited data

Results flagged for a closer look

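The tested members reported by name were searched for libraries that stood far from the others of their group, by a gap to the nearest library that exceeded Dixon's critical value as a share of the group's range. On log2 CPM this was found in 13 of 126 groups of 6 values. The nominal rate for independent normal values is about 1 in 20, but the members share the same 12 libraries. The share over all genes was not computed, so the count is no result about the family. Of the 13, 5 were Sham 4 and 5 were DHCA 3.

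In Sham 4, KCNAB1 (22.9 CPM) and KCNH4 (7.96 CPM) were lowest, and KCNG2 (13.6 CPM), KCNJ6 (110 CPM) and KCNN2 (44.6 CPM) were highest of the sham group. In DHCA 3, KCNAB1 (104 CPM), KCND3 (5.53 CPM), KCNG1 (15.8 CPM) and KCNMA1 (70.8 CPM) were lowest and KCNJ10 (259 CPM) was highest of the DHCA group. DHCA 3 also had the lowest spiny neuron marker sum of the DHCA group, 2993 CPM, and the part of cell content in these values was not tested.

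The other 3 were KCNE4 in DHCA 2 (highest, 13.0 CPM against 5.20 CPM in the next library), KCNH7 in DHCA 6 (highest, 24.3 CPM) and KCNRG in Sham 1 (lowest, 0.775 CPM, which is 2 counts and under the level of 3 counts in that library, 1.16 CPM).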

How the results depend on the processing

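No KCN gene and no other listed ion-handling gene was called in any of the settings tried, in edgeR, DESeq2 or limma. Of 40 recomputed fold changes 23 kept their sign in every setting, and the smallest adjusted p was 0.0501, for LRRC8A with limma-voom and sample weights. For members it was 0.0686, for KCNS3 with DESeq2. Low depth limits members such as KCNK13 and KCNJ16, and Sham 1 and Sham 5 have the fewest counts.

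The number of called genes over the whole table was 26 and became 179 with DESeq2, 207 with limma-voom and sample weights, 1 without Sham 1, Sham 4 and Sham 5, and 6 at a threshold of 0.01. It ran from 9 (without DHCA 2) to 51 (without Sham 2) as libraries were left out in turn. Members higher at an unadjusted p under 0.05 numbered 1 with upper-quartile factors, 4 with limma-voom with or without weights, and 1 without the 3 sham libraries, with a range of 0 (without Sham 2, DHCA 1 or DHCA 5) to 3 (without Sham 3) on leaving out libraries. Members lower numbered 8 with weights and 2 without the 3 sham libraries, with a range of 3 to 11, the latter without Sham 2. Among these fits, the share over all genes at that p was computed only for the main one and those without Sham 4 and without the 3 sham libraries. The other counts, higher or lower, have no share beside them and are no result about the family. Members whose groups do not overlap ranged from 0 to 1, the latter without Sham 2, Sham 3 or DHCA 4. For those fits the share over all genes was not computed. The median level of the members was 5.00 RPKM, 4.98 without Sham 4, 4.54 without the 3 sham libraries and 5.20 with library totals. With library totals in place of TMM, a choice made after seeing the data, 31 members of Sham 4 lay outside the other libraries. The share over all genes was not computed with that scaling. The cause was not tested.

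The replicate numbers in the titles did not pair the libraries, with correlations of same-numbered deviations from -0.388 to 0.338 and none a best match. With the replicate block 8 genes were called, none of them KCN genes. At an unadjusted p under 0.05, 2 members were above and 3 below, with no share over all genes computed for that fit. KCNF1 and KCNS2 changed sign to 0.0027 and 0.084 with the block.

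Other fold changes changed sign. With limma-voom KCNF1 was 0.13, KCNG3 0.040 and KCNH4 0.021. With weights KCNF1 was 0.28, KCNG3 0.21, KCNK1 0.28, KCNN2 0.041 and KCNS2 0.079. Without Sham 1, Sham 4 and Sham 5, KCNAB1 was -0.069, KCNAB2 0.085, KCNE5 0.048, KCNF1 0.12, KCNG2 0.22, KCNG3 0.26, KCNH3 0.020, KCNK1 0.19, KCNK2 -0.17, KCNN2 0.17 and KCNS2 0.0065. On leaving out libraries in turn, the ranges that crossed 0 were -0.00037 to 0.39 for KCNA1, -0.055 to 0.68 for KCNC4, -0.45 to 0.34 for KCNF1, -1.004 to 0.24 for KCNG2, -0.26 to 0.030 for KCNG3, -0.037 to 0.15 for KCNIP2, -0.13 to 0.33 for KCNJ4, -0.20 to 0.19 for KCNK1, -0.0042 to 0.30 for KCNMA1, -0.63 to 0.14 for KCNN2 and -0.43 to 0.37 for KCNS2. The cause was not tested.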
